A study of Mus musculus with 5 samples.

Results

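Complement genes were followed through the early regeneration of mouse muscle at single-cell level. The set held 9 genes, C1qa, C1qb, C1qc, C3, C4b, Cfb, Cfd, Serping1 and C3ar1, chosen by name, of 18132 genes with a row in at least 1 of 4 deposited count tables. Of the 9 genes, 8 had a row on every day, as did 14214 of all genes, and Cfd had a row at day 7 alone. The tissue was the tibialis anterior, the main shin muscle, of C57Bl/6 mice, taken uninjured (day 0) or 2, 5 and 7 days after notexin, a snake venom phospholipase that destroys muscle fibres. The mice were 4 months old at days 0, 5 and 7 and 7 months old at day 2, and they were female except at day 7, where they were male. No transgene or gene deletion is named for any group. All samples were digested with Collagenase D and Dispase II, cleared of red cells, sorted for live cells with propidium iodide and Calcein-AM and made into 10x Chromium 3' v2 libraries, which count molecules by unique molecular identifiers (UMIs) at the 3' end of each transcript. Day 0 joined 2 sequencing runs in 1 table that does not mark the run of a cell, and each other day was 1 sample, so the 4 days were 4 unreplicated tables and no test between days was possible. Day cannot be told apart from the age at day 2 or the sex at day 7, and the number of animals behind a sample is not given in the sources used here.

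Complement is a cascade of blood and tissue proteins that marks cells, debris and microbes for removal. C1q, built from the chains encoded by C1qa, C1qb and C1qc, recognises targets and starts the classical pathway through the proteases C1r and C1s. C4b is the mouse gene for the C4 protein of that pathway, C3 is the central component on which all pathways converge, factor B (Cfb) supplies the protease of the alternative pathway, and factor D (Cfd, or adipsin) cleaves factor B. Serping1 encodes the C1 inhibitor, which blocks C1r and C1s, and C3ar1 encodes the receptor for C3a, the small fragment released from C3. Tissue macrophages are the usual source of C1q, whereas the liver and fibroblasts make C3, C4, factor B and the C1 inhibitor. In muscle the fibroblast-like stromal cells are the fibro/adipogenic progenitors (FAPs), and macrophages enter the injured tissue to clear dead fibres.

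The tables held 5176 annotated cells at day 0, 4903 at day 2, 2164 at day 5 and 5680 at day 7, with 22330278, 57723171, 5986701 and 40427212 UMIs in all and a median of 3833, 9683, 2018 and 5991 UMIs per cell, so day 5 was the shallowest. Levels are UMIs of a gene per 1000000 UMIs (CPM) summed over the cells of a deposited cell label, given with the exact 95% Poisson interval in parentheses. Ratios are on the log2 scale, and their intervals come from an exact binomial share of both UMI counts. These intervals, and the exact Clopper-Pearson intervals of shares, cover counting error only and not the difference between animals. Labels were used as deposited, FAPs joining all labels that name FAPs and immune-labelled cells all labels that name immune cells, macrophages, antigen-presenting cells (APCs), B, T or NK cells. The highest sum among marker lists matched most label names, including FAPs on each day, Endothelial on each day, Immune at days 0 and 2 and Anti-inflammatory macrophages at days 5 and 7. Endothelial markers led the day 0 label Platelets, mature muscle markers led Neural/Glial/Schwann cells, and macrophage markers led the day 2 labels B cells and MuSCs and progenitors and the day 7 label MuSCs and progenitors. FAP markers led Tenocytes, at 73611 CPM against 26996 for tenocyte markers at day 0 and 32101 against 20308 at day 7. At day 5 FAP markers led MuSCs and progenitors, at 1590 against 1393 for MuSC markers, and macrophage markers led the label B cells. FAP and then NK markers led the day 5 label Macrophages/APCs/T-cells, where all 8 macrophage markers summed to 673 CPM against 20248 in that day's Anti-inflammatory macrophages. Between 9 and 40 barcodes were shared by any pair of days, at most 0.816% of the smaller table.

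The 3 C1q genes lie side by side on the minus strand of chromosome 4, with C1qb at chr4:136880129-136886187, C1qc at chr4:136889804-136893065 and C1qa at chr4:136895917-136898803 in the GENCODE annotation of GRCm38, the assembly that mm10 names. C3 lies at chr17:57203970-57228136, C4b at chr17:34728380-34743882 and Cfb at chr17:34856374-34862518, all on the minus strand of chromosome 17. Serping1 lies at chr2:84765387-84775444 and C3ar1 at chr6:122847138-122856161, both on the minus strand, and Cfd at chr10:79890853-79892655 on the plus strand. RefSeq upstream sequences (GRCm38.p6) were at hand for 5 of the 9 genes, and those of C1qb, C1qc, C3ar1 and C3 are shown because the first 3 were macrophage transcripts and C3 a FAP transcript in what follows. They cover chr4:136886201-136886450 for C1qb, chr4:136893066-136893164 for C1qc, chr6:122856162-122856407 for C3ar1 and chr17:57228137-57228386 for C3, each on the minus strand, written 5' to 3' and ending at or before the RefSeq start, without bases that GENCODE places inside the gene. Capitals mark AGGAAG or its reverse complement CTTCCT, the core that ETS factors such as PU.1 bind, and TTGCNNAA on either strand, a C/EBP-type motif.
C1qb: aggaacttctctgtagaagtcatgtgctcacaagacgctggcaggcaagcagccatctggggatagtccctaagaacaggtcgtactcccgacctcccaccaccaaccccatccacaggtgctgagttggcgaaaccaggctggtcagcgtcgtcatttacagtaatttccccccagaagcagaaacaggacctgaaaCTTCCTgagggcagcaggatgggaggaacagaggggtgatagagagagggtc
C1qc: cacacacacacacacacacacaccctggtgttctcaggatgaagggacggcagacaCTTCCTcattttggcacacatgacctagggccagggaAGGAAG
C3ar1: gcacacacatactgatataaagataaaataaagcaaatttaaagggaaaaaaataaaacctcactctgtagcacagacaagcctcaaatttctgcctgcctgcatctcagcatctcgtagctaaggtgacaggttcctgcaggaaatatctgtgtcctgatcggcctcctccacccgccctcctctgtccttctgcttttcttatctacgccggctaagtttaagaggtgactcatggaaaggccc
C3: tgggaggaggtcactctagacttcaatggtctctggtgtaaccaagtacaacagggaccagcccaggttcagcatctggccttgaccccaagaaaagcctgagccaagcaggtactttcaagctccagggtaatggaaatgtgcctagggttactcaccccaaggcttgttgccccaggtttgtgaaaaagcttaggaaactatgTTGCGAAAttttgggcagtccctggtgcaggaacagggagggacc
The letters of both motifs were picked after these sequences were read. AGGAAG on either strand occurred once upstream of C1qb, at bases 52 to 47 before the start, at bases 194 to 189 and 157 to 152 before the start of C1qc, and in neither the C3ar1 nor the C3 window. TTGCNNAA occurred in the C3 window alone among the 4 shown, as TTGCGAAA at bases 45 to 38 before the start. Of 32851 RefSeq windows of 250 bases, 29.5% held AGGAAG and 9.56% held TTGCNNAA, so a match of AGGAAG is common, no match overlapped another, and a match of letters says nothing of binding.

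C1q transcripts were highest in macrophage-rich labels on all 4 days, and their level in the label richest in macrophage markers was highest at day 7. C1qa stood at 1458 (1400.4–1517) CPM in the Immune label at day 0, 1118 (1108–1128) in the Immune label at day 2, 2141 (2063–2219.9) in Anti-inflammatory macrophages at day 5 and 6606 (6564–6647) in Anti-inflammatory macrophages at day 7. C1qb stood at 1633 (1572–1695), 1942 (1928–1955), 2444 (2361–2529) and 7797 (7752–7842) in the same labels in the same order. C1qc stood at 1016 (968–1065), 1112 (1102–1123), 1396 (1334–1461) and 4843 (4808–4879). The day 7 values of all 3 chains lay above every other label and day, and none of their intervals overlapped those of day 5. In Anti-inflammatory macrophages, the log2 ratio of day 7 over day 5 was 1.63 (1.57–1.68) for C1qa, 1.67 (1.62–1.72) for C1qb and 1.79 (1.73–1.86) for C1qc. The day 0 and day 2 Immune labels were closer, with C1qa lower at day 2 by a log2 ratio of -0.38 (-0.44 to -0.32), C1qb at 0.25 (0.20–0.31) and C1qc at 0.13 (0.06–0.20). The labels hold different mixtures of cells, since the Immune label of day 0 had 297 cells of all immune types, so a difference in the share of macrophages within a label and a difference per macrophage cannot be told apart here. Summed macrophage markers stood at 15407, 38570.5, 20248 and 42957 CPM in those 4 labels, with all 8 markers above 0 in each, and their part in the C1q levels was not tested.

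Other macrophage labels of the same day held far less C1q. At day 2 the Immune label had 1118 C1qa CPM and the label Macrophages/APCs had 214 (200.5–227), a log2 ratio of 2.39, with 1.99 for C1qb and 2.3 for C1qc. At day 7 the Anti-inflammatory macrophages exceeded the label Macrophages/APCs by log2 ratios of 6.35 (6.12–6.59) for C1qa, 6.35 for C1qb and 6.69 for C1qc. FAPs of day 7 held 166 (159–172) C1qa CPM, above the 81.0 (68.5–95) of that day's label Macrophages/APCs. The small label Macrophages/APCs 2 of day 7, with 64 cells, had 209 (163–264), 391 (327–463) and 244 (194–303) CPM of C1qa, C1qb and C1qc. At day 5, FAPs held 18.9 (14.2–24.5) of C1qa and the label Macrophages/APCs/T-cells 16.2 (8.35–28.2), with overlapping intervals. Summed macrophage markers were lower in the label Macrophages/APCs too, at 16125 CPM against 38570.5 in the Immune label at day 2. At day 7 they stood at 5746 CPM against 42957 in Anti-inflammatory macrophages, and their part in the C1q levels was not tested. So a macrophage name alone did not mark the C1q-rich cells, and 1 label a day held 92.8 to 97.4% of each C1q gene's UMIs.

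**Figure D1:**
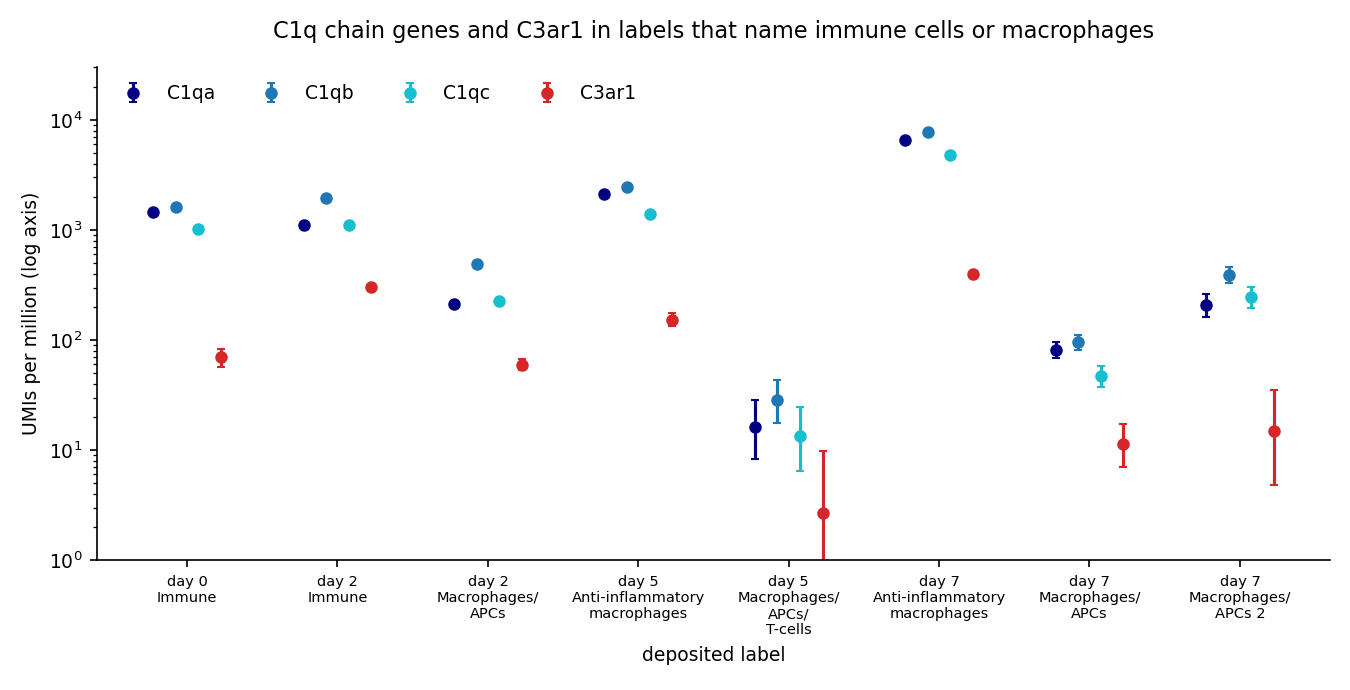
Levels of C1qa, C1qb, C1qc and C3ar1 in CPM, UMIs per 1000000, (log axis) in each deposited label that names immune cells or macrophages on days 0 to 7. Bars are exact 95% Poisson intervals of counting error; C1q chains stand above 1000 CPM in 1 label of each day and reach 7797 for C1qb at day 7.

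Cells were thinned to 1000 UMIs each to compare shares of cells across depths. In the Immune label 27.3% (22.3–32.7) of 297 thinned cells had a C1qa UMI at day 0 and 45.8% (44.1–47.4) of 3405 at day 2, and in Anti-inflammatory macrophages 58.5% (53.7–63.2) of 431 at day 5, where 1 shallower cell was left out, and 92.7% (91.5–93.8) of 1960 at day 7. Before thinning the shares were 31, 79.2, 65.3 and 96.2%. So at day 7 nearly every cell of the label carried C1qa at this depth. In FAPs, which serve as the cell type not known for C1q, the thinned shares were 0.540, 6.00, 3.02 and 6.78% at days 0, 2, 5 and 7, with median depths of 4452, 12321, 2785 and 7007 UMIs against 4275, 9665, 2532 and 6421 in the macrophage-rich labels. The chains went together cell by cell. Of thinned Immune cells at day 0, C1qc was found in 92.6% (84.6–97.2) of 81 cells with C1qa and in 4.17% (1.92–7.76) of 216 cells without. At day 2 the separation was weaker, with 73.6% (71.4–75.8) of 1558 cells with C1qa and 33.4% (31.2–35.6) of 1847 cells without. Anti-inflammatory macrophages gave 73.0% (67.1–78.4) of 252 cells with C1qa and 9.50% (5.63–14.8) of 179 cells without at day 5 and 97.0% (96.1–97.8) of 1817 cells with C1qa and 36.4% (28.5–44.8) of 143 cells without at day 7. C1qb itself was found in 95.5% (94.4–96.3) of thinned Anti-inflammatory macrophages at day 7 and in 31% (25.8–36.6) of thinned Immune cells at day 0.

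Outside macrophage labels, C1q UMIs followed the level of macrophage RNA in the same cells. In FAPs C1qa had 4.65 (3.66–5.82) CPM at day 0, 62.2 (57.2–67.5) at day 2, 18.9 (14.2–24.5) at day 5 and 166 (159–172) at day 7. As a percent of the macrophage-rich label of the day, FAPs held 0.319, 5.57, 0.881 and 2.51% of its C1qa, while the medians over the 8 macrophage markers were 0.379, 7.03, 1.37 and 2.75%. All 8 markers were above 0 in FAPs on every day and summed to 50.1, 2773, 294 and 1068 CPM in the label FAPs, with 1182 in FAPs (activated). Against the markers, C1qa lay within their range in FAPs at days 0, 2 and 7 and below it at day 5, where the lowest marker stood at 1.16%. Endothelial cells at day 7 held 6.25, 6.94 and 6.25% of the macrophage level of C1qa, C1qb and C1qc, beside a marker median of 7.20%. The day 7 label MuSCs and progenitors held 14.5, 13.4 and 14.6%, beside a marker median of 13.3%. In these labels C1q thus stood at or near the level of other macrophage RNA, and differences of C1q between days in FAPs or endothelial cells are given below without being read as expression by those cells.

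**Figure D2:**
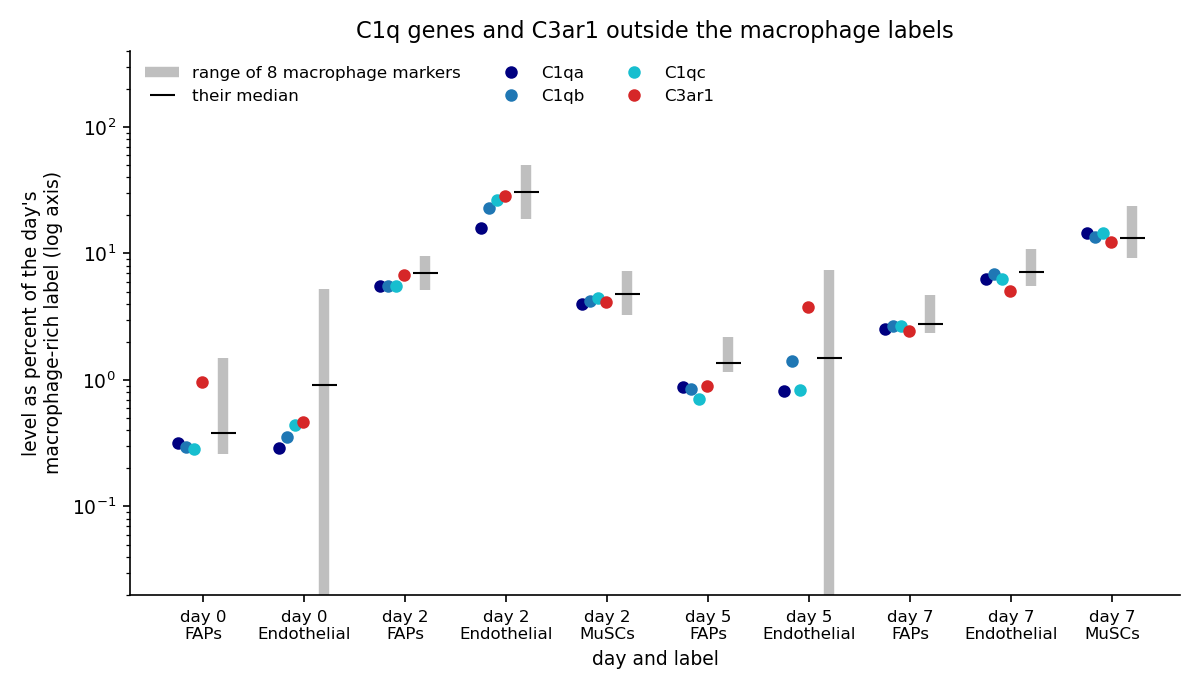
Level of C1qa, C1qb, C1qc and C3ar1 in FAPs, endothelial cells and MuSCs as a percent of the day's macrophage-rich label (log axis), with the range (grey) and median (black line) of the same percent for 8 macrophage markers. The C1q points lie within or just below the marker range, as at day 7 in MuSCs, 14.5% for C1qa against a marker median of 13.3%; a range whose lowest marker was at 0 is drawn to the foot of the axis.

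The split of C1q UMIs among the 3 chains was compared as well. At day 2, FAPs split their 2124 C1q UMIs into 27.0, 46.6 and 26.5% of C1qa, C1qb and C1qc, and the Immune label split 166869 into 26.8, 46.5 and 26.7%. At day 7 the FAP labels together split 7344 into 32.5, 41.8 and 25.7%, and Anti-inflammatory macrophages 283046 into 34.3, 40.5 and 25.2%. The share of C1qb was 46.6% (44.4–48.7) in FAPs at day 2 and 46.5% (46.3–46.8) in the Immune label, so the intervals overlapped. It was 41.8% (40.6–42.9) in FAPs at day 7 and 40.5% (40.3–40.7) in Anti-inflammatory macrophages, and these intervals did not overlap. Nor did those of C1qa, at 32.5% (31.5–33.6) in FAPs and 34.3% (34.1–34.5) in Anti-inflammatory macrophages, while those of C1qc did, at 25.7% (24.7–26.7) and 25.2% (25–25.3). Across days the split itself moved, with C1qb at 39.8% (38.6–40.9) of C1q UMIs in the Immune label at day 0, 46.5% (46.3–46.8) at day 2, 40.9% (39.8–41.9) in Anti-inflammatory macrophages at day 5 and 40.5% (40.3–40.7) at day 7. At day 2 C1qb took a larger and C1qa a smaller part than on the other days in macrophage-rich labels, and FAPs showed the same split on that day. The label Macrophages/APCs of day 2 went further, at 52.6% (51.1–54.1) of C1qb.

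Leaving out FAPs with 3 or more UMIs over 6 macrophage markers removed 0 of 3516 FAPs at day 0, 455 of 667 at day 2, 6 of 828 at day 5 and 141 of 1889 at day 7, and lowered the C1q ratios between days without removing them. The limit is a fixed count, so deeper cells reach it more easily, and median FAP depth was 12321 UMIs at day 2 and 2785 at day 5. Cells kept can still hold fewer than 3 such UMIs, so macrophage RNA is not fully taken out and its part in the ratios left was not tested. The log2 ratio of C1qa in FAPs at day 2 over day 0 was 3.74 (3.39–4.11) over all FAPs and 3.12 in those kept. At day 5 it was 2.02 (1.49–2.54) and 2.01, and at day 7 5.15 (4.82–5.50) and 3.39. C1qb at day 7 gave 5.46 and 3.77. In endothelial cells the log2 ratio of day 7 over day 0 was 6.62 (5.84–7.54) for C1qa, with 3.90 in the cells kept. In thinned day 7 FAPs, C1qc was found in 28.9% (21.2–37.6) of 128 cells with C1qa and in 4.43% (3.52–5.50) of 1761 cells without, and in the MuSC label in 62.5% (48.5–75.1) of 56 cells with C1qa and 3.82% (2.05–6.45) of 340 cells without. So C1q chains also went together in single cells of these labels, most clearly in the MuSC label.

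C3ar1, the C3a receptor, was a macrophage transcript like C1q, but its order over days differed from that of the C1q genes. In the macrophage-rich label it stood at 69.5 (57.4–83.3) CPM at day 0, 303 (298–309) at day 2, 154 (133–176) at day 5 and 395 (385–406) at day 7. The Immune label of day 2 exceeded that of day 0 by a log2 ratio of 2.13 (1.86–2.40), a step that C1qa did not show. All 4 intervals were apart, with day 7 highest and day 0 lowest. Summed macrophage markers in the same labels had the same order over days, at 15407, 38570.5, 20248 and 42957 CPM. Their part in the C3ar1 levels was not tested. Within day 2 the Immune label exceeded Macrophages/APCs by 2.34 (2.17–2.52), and within day 7 the Anti-inflammatory macrophages exceeded Macrophages/APCs by 5.12 (4.51–5.82). After thinning, a C3ar1 UMI was found in 5.05% (2.85–8.19) of Immune cells at day 0, 23.6% (22.2–25.1) of Immune cells at day 2, 12.8% (9.76–16.3) of Anti-inflammatory macrophages at day 5 and 32.1% (30.0–34.2) of them at day 7. Before thinning the shares were 17.8, 84.2, 29.6 and 81.0%, and in thinned FAPs they were 0.0569, 2.70, 0.121 and 0.741%. In the Immune label of day 2, C3ar1 did not go with C1qa, being found in 23.6% (21.5–25.8) of 1558 cells with C1qa and 23.7% (21.7–25.7) of 1847 cells without. In Anti-inflammatory macrophages of day 7 it was found in 33.4% (31.2–35.6) of 1817 cells with C1qa and 16.1% (10.5–23.1) of 143 cells without. As a percent of the macrophage-rich label, C3ar1 in FAPs stood at 0.969, 6.69, 0.893 and 2.42% at days 0, 2, 5 and 7, beside marker medians of 0.379, 7.03, 1.37 and 2.75%.

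C3, the central component, was highest in FAPs, and its level over all FAPs was lower on every day after injury than in uninjured muscle, although the day 7 label FAPs (activated) alone stood above day 0, at a log2 ratio of 0.89 (0.84–0.94). FAPs held 1079 (1063–1095) C3 CPM at day 0, 401 (388–414) at day 2, 675 (646–706) at day 5 and 469 (458–481) at day 7. Uninjured FAPs were highest, those of day 2 lowest, and no interval overlapped another. Relative to day 0 the log2 ratio was -1.43 (-1.48 to -1.38) for day 2, -0.68 (-0.74 to -0.61) for day 5 and -1.20 (-1.24 to -1.16) for day 7, so days 2 and 7 passed the 2-fold mark and day 5 did not. Immune-labelled cells held 81.4 at day 0, 9.02 at day 2, 39.3 at day 5 and 25.4 at day 7. Endothelial cells had 14.7 (10.6–19.7) at day 7 and 170.2 (156–185) at day 0, and tenocytes, the tendon cells, had 213 (181–248) at day 7 and 300.5 (249.7–359) at day 0. In thinned FAPs a C3 UMI was found in 45.2% (43.6–46.9) at day 0, 33.7% (30.1–37.5) at day 2, 39.4% (36.0–42.8) at day 5 and 25.5% (23.5–27.5) at day 7, and before thinning in 68.7, 83.4, 61.0 and 57.4%. The thinned share in endothelial cells at day 0, at a median of 2203 UMIs, was 5.79% (4.47–7.34).

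FAP RNA in other labels was measured with 8 FAP markers. At day 7 endothelial cells held 3.12% of the FAP level of C3 and 2.50% of Serping1, within a marker range of 0.846 to 3.65%, and at day 0 they held 15.8% and 11.7%, within a range of 10.4 to 19.9%. Day 0 Immune cells held 7.55% of C3 and 7.49% of Serping1, within a range of 6.50 to 9.79%. C3 and Serping1 in these labels thus lay inside the range of other FAP RNA in them, with 2 of 8 markers at or above each in endothelial cells at day 7. C3 did not lie inside that range in every label. Day 0 Smooth muscle cells held 27.7% (22.1–34.2) of the FAP level of C3, above every FAP marker. Day 5 Mature skeletal muscle held 33.9% (23.6–47.4) of C3, also above every FAP marker, from 35 UMIs found in 4.84% of 62 cells. C4b and Cfb did not always lie inside the marker range either. Endothelial cells at day 7 held 6.57% (4.11–9.98) of the FAP level of C4b and 7.78% (3.87–14) of Cfb, above every FAP marker. Day 0 Immune cells held 17.5% (7.50–34.7) of C4b, from 8 UMIs. In Anti-inflammatory macrophages C3 was above every marker too. They held 31.6% of the FAP level of Cfb at day 7 and 28.5% at day 5, while no FAP marker was above 5.62% at day 7 or 4.14% at day 5. C4b stood at 8.64% at day 7 and 11.1% at day 5 and C3 at 6.35 and 7.11%, all above the highest FAP marker. Serping1 in the same cells stood at 1.15% at day 7 and 1.34% at day 5, inside the marker range. Factor B in Anti-inflammatory macrophages was thus the member farthest above the level of FAP RNA there.

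Cfb itself, the alternative pathway protease, stood in FAPs at 40.1 (37.1–43.3) CPM at day 0, 24.9 (21.8–28.3) at day 2, 139.9 (127–154) at day 5 and 48.2 (44.7–51.9) at day 7. Day 5 was highest and day 2 lowest, and no interval overlapped another. The log2 ratio to day 0 was -0.69 (-0.91 to -0.47) at day 2, 1.80 (1.62–1.98) at day 5 and 0.27 (0.11–0.42) at day 7. The macrophage-rich labels also had most at day 5, with 2.40 (0.653–6.13) in the Immune label at day 0 from 4 UMIs, 1.30 (0.971–1.70) in the Immune label at day 2, 39.9 (30.0–52.0) in Anti-inflammatory macrophages at day 5 and 15.2 (13.3–17.4) in them at day 7. In FAPs a Cfb UMI was found in 3.84, 1.80, 8.33 and 4.55% of thinned cells at days 0, 2, 5 and 7, from 13.2, 20.7, 23.2 and 24.4% unthinned. Thinning lowered the day 5 over day 0 ratio to 1.21 and left it past 2-fold.

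C4b, the C4 protein of the classical pathway, was at like levels over all FAPs at days 0 and 2 and higher at days 5 and 7. FAPs held 27.4 (24.9–30.1) CPM at day 0, 26.7 (23.5–30.3) at day 2, 107 (95.1–119) at day 5 and 114 (109–119.8) at day 7. Days 0 and 2 overlapped, as did days 5 and 7, and the later pair stood above the earlier pair. The log2 ratio to day 0 was -0.04 (-0.27 to 0.19) at day 2, 1.96 (1.75–2.17) at day 5 and 2.06 (1.91–2.21) at day 7. The day 7 value joins both FAP labels, and the label FAPs alone stood less than 2-fold above day 0, as given below. C4b is uncertain as a single gene, since 63.2% of the 31-base runs in the last 400 bases of its transcript also occur in its neighbour C4a, which was not analysed here, and reads from such runs cannot be told apart. At day 0 the label Neural/Glial/Schwann cells held 41.8 (22.2–71.4) from 13 UMIs, 152% of the FAP level, while its FAP markers stood at 18.2 to 35.3%. In single FAPs C4b went with C3 at days 0, 5 and 7, while at day 2 the intervals overlapped. C4b was found in 4.78% (3.78–5.95) of 1590 cells with C3 and 0.883% (0.515–1.41) of 1926 cells without at day 0 and in 3.11% (1.26–6.30) of 225 cells with C3 and 1.81% (0.785–3.54) of 442 cells without at day 2. It was found in 14.1% (10.5–18.4) of 326 cells with C3 and 4.78% (3.09–7.03) of 502 cells without at day 5 and in 25.4% (21.5–29.5) of 481 cells with C3 and 4.05% (3.08–5.21) of 1408 cells without at day 7.

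Cfd, the protease that cleaves factor B and a known product of fat cells, was barely detected. Its 12 UMIs at day 7 came from 11 cells, 4 UMIs in the label FAPs, 1 in FAPs (activated) and 7 in Anti-inflammatory macrophages. The level was 0.325 (0.0885–0.832) CPM in the label FAPs and 0.476 (0.191–0.981) in Anti-inflammatory macrophages, with overlapping intervals. All other labels of day 7 had 0 UMIs, where a count of 0 allows up to 1.02 CPM in endothelial cells and 1.07 in the MuSC label, taking 3 counts as the limit. Cfd on the other days was not analysed here.

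Serping1, the C1 inhibitor, was a stromal transcript on all 4 days. FAPs held 2184 (2161–2206) CPM at day 0, 1192 (1169–1214) at day 2, 1429 (1386–1473) at day 5 and 2239 (2214–2263) at day 7, with day 2 lowest and day 7 back near day 0. None of the ratios to day 0 passed 2-fold, at -0.87 (-0.90 to -0.84), -0.61 (-0.66 to -0.57) and 0.04 (0.01–0.06) for days 2, 5 and 7. Tenocytes were the other high label, at 1005 (934–1079) at day 7 and 3677 (3493–3867) at day 0, a log2 ratio of day 7 over day 0 of -1.87 (-2.00 to -1.74) over 88 and 70 cells. Relative to FAPs of the same day, tenocytes stood at a log2 ratio of -1.16 (-1.26 to -1.05) at day 7 and 0.75 (0.68–0.83) at day 0, so they were below FAPs at day 7 and above them at day 0. The summed tenocyte markers of the label were 20308 CPM at day 7 and 26996 at day 0, beside FAP markers at 32101 and 73611, and their part in the difference was not tested. Smooth muscle cells had 583 (498–679) at day 0, 26.7% of the FAP level beside FAP markers at up to 18.4%. The MuSC label had 164 (149–179.6) at day 7 and 13.2 (8.37–19.8) at day 2. These were 7.32 and 1.11% of the FAP level, inside the FAP marker ranges of 1.55 to 10.8% and 0.258 to 4.83%. In thinned FAPs the share with a Serping1 UMI was 83.2, 63.0, 66.1 and 82.3% at days 0, 2, 5 and 7, against 10.4, 1.09, 3.0 and 2.45% in immune-labelled cells. In single FAPs, Serping1 did not go with C3 at day 0 but did on the later days. It was found in 82.9% (81.0–84.7) of 1590 cells with C3 and 83.4% (81.6–85.0) of 1926 cells without at day 0, with overlapping intervals. The intervals were apart at day 2, with 74.2% (68.0–79.8) of 225 cells with C3 and 57.2% (52.5–61.9) of 442 cells without, at day 5, with 74.2% (69.1–78.9) of 326 cells with C3 and 60.8% (56.3–65.1) of 502 cells without, and at day 7, with 92.9% (90.3–95.1) of 481 cells with C3 and 78.6% (76.4–80.7) of 1408 cells without. The day 7 values join both FAP labels. Within the label FAPs the intervals were apart, at 92.7% (88.6–95.7) of 234 cells with C3 and 77.8% (75.5–80.0) of 1303 without. Within FAPs (activated) they overlapped, at 93.1% (89.2–95.9) of 247 cells with C3 and 88.6% (80.9–94.0) of 105 without.

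**Figure D3:**
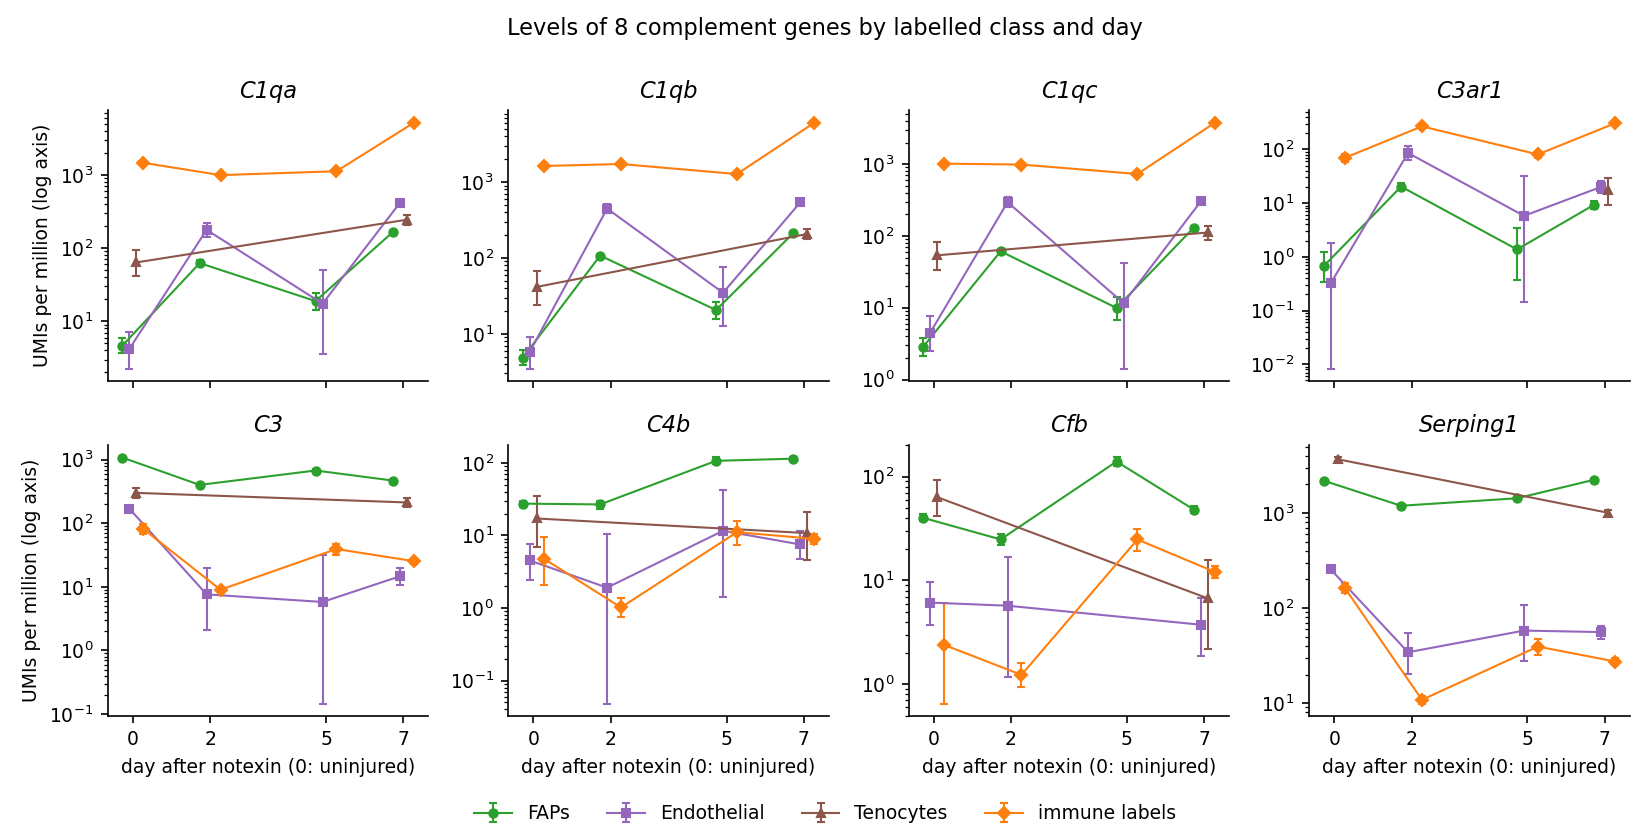
Levels of 8 complement genes in CPM (log axes that differ between panels) by day, in FAPs, endothelial cells, tenocytes and all immune labels together, with exact 95% Poisson intervals; labels under 50 cells and counts of 0 are not drawn. C1q genes and C3ar1 are highest in immune labels on each day, while C3 and C4b are highest in FAPs and Cfb and Serping1 in FAPs or, at day 0, in tenocytes.

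At day 7 the FAPs carried separate labels, and the stromal complement genes differed between them. FAPs (activated), 352 cells, held 1995 (1935–2056) C3 CPM, and the label FAPs, 1537 cells, held 208 (199.5–216), a log2 ratio of 3.27 (3.19–3.34). C4b stood at 555 (523–587) in FAPs (activated) and 38.5 (35.1–42.1) in the label FAPs, a log2 ratio of 3.85 (3.69–4.01). Cfb differed less, at 77.6 (66.2–90.5) and 43.1 (39.5–47.0) with a ratio of 0.85 (0.59–1.10), and so did Serping1, at 3664 (3583–3747) and 1994 (1969–2019) with 0.88 (0.84–0.91). So C3 and C4b passed 2-fold between the labels, and Cfb and Serping1 did not. C1qa did not differ beyond counting error, at 165 (148–183) in FAPs (activated) and 166 (159–173) in the label FAPs. Relative to day 0 FAPs, C3 lay on opposite sides in the labels, with log2 ratios of 0.89 (0.84–0.94) in FAPs (activated) and -2.38 (-2.44 to -2.32) in the label FAPs. C4b gave 4.34 (4.18–4.50) and 0.49 (0.30–0.68), Cfb 0.95 (0.70–1.20) and 0.11 (-0.06 to 0.27) and Serping1 0.75 (0.71–0.78) and -0.13 (-0.15 to -0.11) in FAPs (activated) and the label FAPs. In thinned cells of FAPs (activated), 70.2% (65.1–74.9) had a C3 UMI and 32.4% (27.5–37.5) a C4b UMI, against 15.2% (13.5–17.1) and 4.23% (3.28–5.36) in the label FAPs, and unthinned 92.6 and 68.2% against 49.4 and 18.5%. Within FAPs (activated), C4b was found in 39.7% (33.5–46.1) of 247 cells with C3 and in 15.2% (8.97–23.6) of 105 cells without. The labels are the authors' annotation of these same cells, and which genes it used is not given in the sources used here, so the ratios describe the labels and carry no test. Both were led by FAP markers, summing to 54020.1 CPM in FAPs (activated) and 56505 in the label FAPs. Other marker lists moved with the contrast. The 4 monocyte markers summed to 2059 CPM in FAPs (activated) and 354 in the label FAPs, of which Plac8 alone made up 2033 and 338, Ly6c2 19.4 and 11.2, and Ccr2 6.63 and 4.63, with Chil3 at 0 in FAPs (activated). The 5 tenocyte markers summed to 306 and 1288, with Scx at 0 in FAPs (activated), and the 5 smooth muscle markers to 15.1 and 198. The part of these cells in the ratios was not tested. Other pathway genes past 2-fold higher in FAPs (activated) included C7 (3.66, 2.62–4.78), Cd55 (2.50, 2.31–2.69), Clu (1.24, 0.89–1.57) and Vtn (1.05, 0.92–1.18). C1rb, C8g, Cd59a and Cd59b were past 2-fold lower from 1 to 4 UMIs in FAPs (activated), with intervals that include equal levels.

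**Figure D4:**
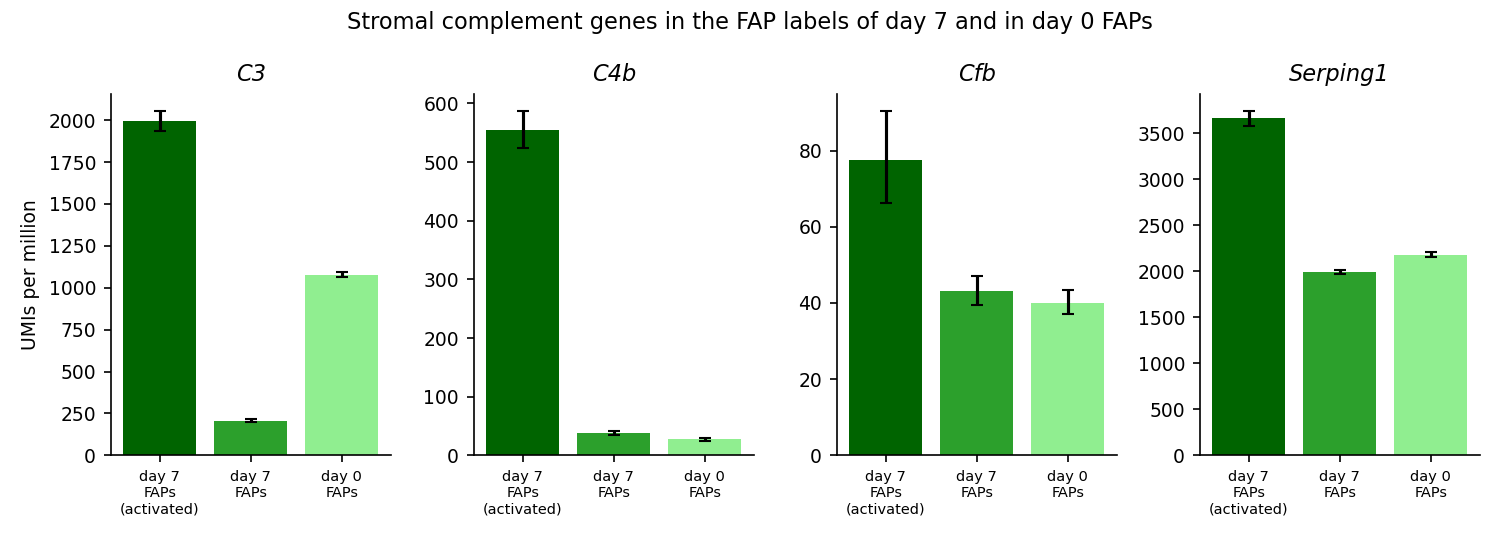
Levels of C3, C4b, Cfb and Serping1 in CPM in the day 7 labels FAPs (activated) and FAPs and in day 0 FAPs, with exact 95% Poisson intervals as error bars. C3 reaches 1995 in FAPs (activated), 208 in the day 7 label FAPs and 1079 in day 0 FAPs, and C4b reaches 555 in FAPs (activated) against 38.5 in the label FAPs.

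Set against all genes, the members divided the same way on each day between FAPs and immune-labelled cells. A call here is a level at least 2-fold apart with at least 20 UMIs over both groups, with no test behind it. At day 0, 4 of the 8 members were higher and 4 lower in FAPs, against 26.4% and 13.7% of 12635 genes. At days 2, 5 and 7 the same 4, C3, C4b, Cfb and Serping1, were higher and the same 4, C1qa, C1qb, C1qc and C3ar1, lower, against 27.7% and 14.9% of 13476 genes at day 2, 26.6% and 16.3% of 10812 at day 5 and 29.5% and 17.3% of 13467 at day 7. Every member with enough UMIs was thus past 2-fold on every day, while the larger part of all genes were not. The log2 ratio of Serping1, FAPs over immune, was 3.74 (3.57–3.92) at day 0, 6.78 (6.65–6.91) at day 2, 5.18 (4.90–5.48) at day 5 and 6.35 (6.23–6.48) at day 7. That of C3 was 3.73 (3.48–3.98), 5.47 (5.33–5.62), 4.10 (3.82–4.4) and 4.21 (4.07–4.34), and that of C1qa -8.29 (-8.64 to -7.96), -3.99 (-4.11 to -3.87), -5.89 (-6.30 to -5.50) and -4.95 (-5.01 to -4.89). C1qa was thus nearest between the classes at day 2 and farthest at day 0, and macrophage markers in FAPs, given above, were also highest at day 2 and lowest at day 0. Cfb at day 7 was the nearest to the 2-fold mark, at 1.99 (1.78–2.21), and Cfd had 5 UMIs in FAPs and 7 in immune cells, too few to call.

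Between days, FAPs at day 2 over day 0 had 4 of 8 members at least 2-fold higher and 1 lower, against 10.8% and 13.9% of 12943 genes. The 4 higher were C1qa, C1qb, C1qc and C3ar1, which stood at the level of macrophage RNA in FAPs, and the lower one was C3, so of the 4 stromal members none was higher. At day 5 over day 0, 5 of 7 members with enough UMIs were higher and 0 lower, against 10.3% and 10.1% of 12289 genes: the 3 C1q genes, C4b and Cfb. At day 7 over day 0, 5 of 8 were higher and 1 lower, against 9.89% and 10.6% of 13188 genes, C4b and the 4 macrophage transcripts being higher and C3 lower. In the label FAPs alone, C4b did not pass 2-fold. The median log2 ratio over the members was 1.85 at day 2, 1.80 at day 5 and 2.93 at day 7, against -0.17, -0.01 and -0.08 over all genes tested. These medians include the C1q genes and, where it had enough UMIs, C3ar1, which are not read as expression by FAPs. The stromal members C3, C4b, Cfb and Serping1 stood at -1.43, -0.04, -0.69 and -0.87 at day 2. They stood at -0.68, 1.96, 1.80 and -0.61 at day 5 and at -1.20, 2.06, 0.27 and 0.04 at day 7. The 3 comparisons share the day 0 cells. Directly between later days, C4b in FAPs was higher at day 5 than at day 2 by 2.00 (1.75–2.24) and Cfb by 2.49 (2.25–2.73), while Cfb at day 7 over day 5 was lower at -1.54 (-1.72 to -1.36) and C4b little different at 0.10 (-0.08 to 0.28).

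Endothelial cells at day 7 over day 0 had 4 of 8 members higher and 2 lower, against 7.08% and 9.97% of 10717 genes. The higher were again the C1q genes and C3ar1, of which C3ar1 rested on 59 UMIs at day 7 and 1 at day 0 (5.96, 3.43–11.29), and the lower were C3 (-3.54, -4.02 to -3.09) and Serping1 (-2.19, -2.44 to -1.94). FAP markers as a percent of the FAP level had a median of 1.45% in endothelial cells at day 7 and 13.1% at day 0, so FAP RNA in them was lower at day 7 as well, and its part in the C3 and Serping1 values was not tested. At day 5 over day 0, with 100 endothelial cells at day 5, 1 of 3 members with enough UMIs was higher and 2 lower, against 11.4% and 15.7% of 9369 genes. C1qb was higher from 6 UMIs at day 5 and 18 at day 0, C3 lower from 1 and 528 UMIs (-4.88, -10.18 to -2.39) and Serping1 lower from 10 and 790 (-2.14, -3.20 to -1.25).

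Counting UMIs rather than levels gives the source of each transcript among the cells sampled, and so depends on how many cells of each label were caught. FAP labels made up 67.9, 13.6, 38.3 and 33.3% of annotated cells at days 0, 2, 5 and 7, and immune labels 5.74, 84.0, 52.4 and 48.1%. FAPs held 95% (94.7–95.3) of C3 UMIs at day 0, 89.4% (88.4–90.3) at day 2, 93.4% (92.2–94.4) at day 5 and 90.1% (89.4–90.8) at day 7. Even at day 2, when FAPs were the smaller class, they held 95.3% of Serping1 UMIs and 82.8% of C4b UMIs. Cfb was the most divided, with 73.2% (70.2–76.0) in FAPs and 24.3% (21.6–27.2) in immune labels at day 7, and 92.5% in FAPs at day 0. Immune labels held 95.4, 98.4, 97.9 and 93.6% of C1qa UMIs at days 0, 2, 5 and 7, the first of these from 297 cells. The share of C3ar1 in immune labels was 94.4% (93.8–94.9) at day 7 and 89.2% (82.6–94.0) at day 0. FAPs (activated), 6.20% of day 7 cells, held 56.1% (55.0–57.2) of that day's C3 UMIs and 63.1% (60.8–65.3) of its C4b UMIs, but 17.3% (14.9–19.8) of Cfb and 22.6% (22.2–23.1) of Serping1.

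**Figure D5:**
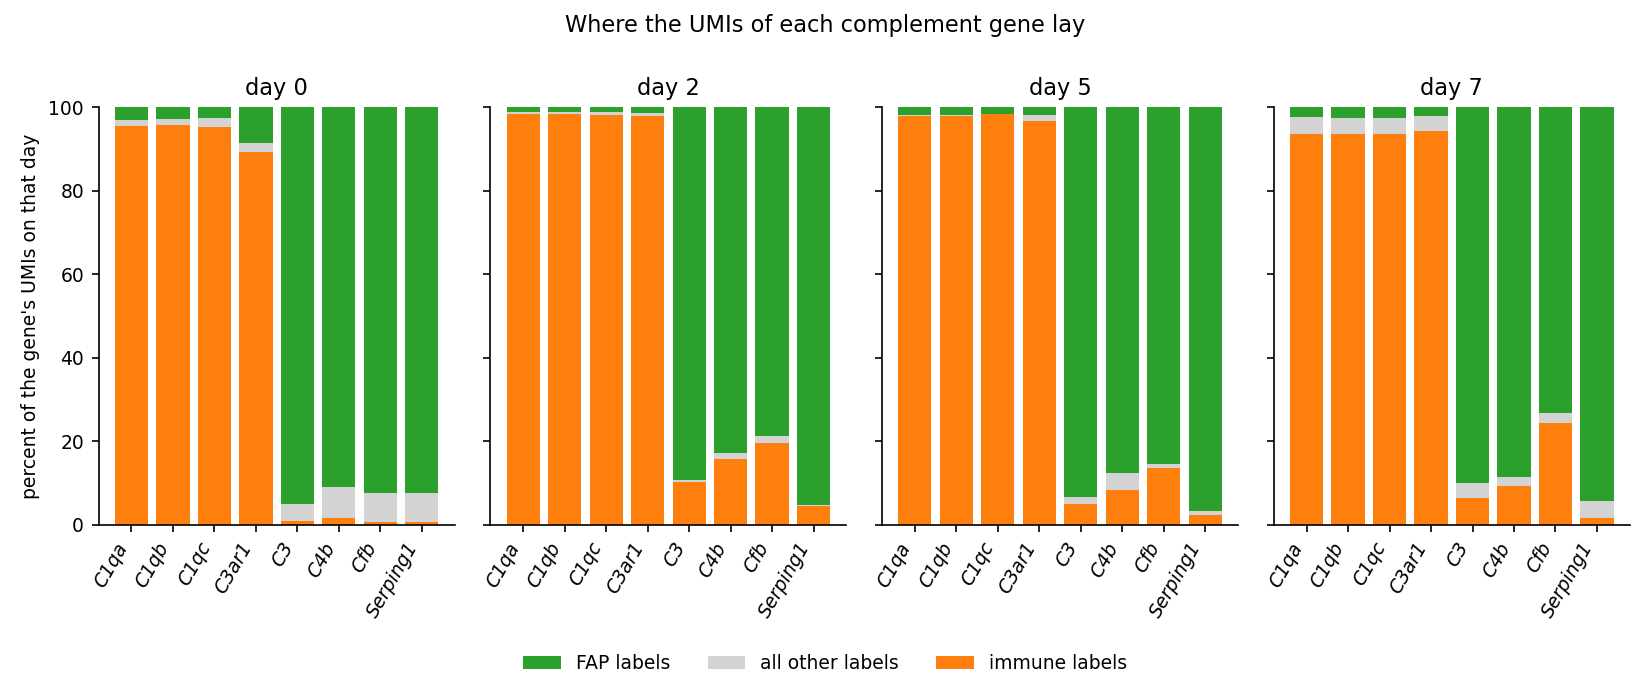
Percent of each gene's UMIs on a day (bars sum to 100 from an axis that starts at 0) that lay in FAP labels, in all other labels and in immune labels, for days 0, 2, 5 and 7. Immune labels hold at least 89.2% of C1q and C3ar1 UMIs and FAP labels at least 73.2% of C3, C4b, Cfb and Serping1 UMIs on every day; Cfb at day 7 is the most divided.

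Other genes of the cascade came from a list of 48, of which 42 had a row on some day and 27 on all days. At day 0, 10 of 24 tested were at least 2-fold higher in FAPs than in immune-labelled cells and 6 lower; the counts were 12 and 8 of 26 at day 2, 11 and 6 of 20 at day 5 and 15 and 8 of 28 at day 7. These compare with 26.4%, 27.7%, 26.6% and 29.5% of all genes higher and 13.7%, 14.9%, 16.3% and 17.3% lower. Of the proteases and lectins that start the cascade, 5 of 7 tested were higher in FAPs at day 0 and 0 lower, among them the C1q partner proteases C1ra (3.81, 3.37–4.27) and C1s1 (3.47, 3.12–3.84) and the scavenger collectin Colec12 (4.33, 3.34–5.54). C1ra had 360.1 CPM in FAPs and 25.8 in immune cells, and C1s1 443 and 40.1. So the chains of C1q and the proteases that bind them were highest in different classes of cells. C2, which forms the classical convertase with C4, was higher in FAPs on each day, at 4.12, 5.07, 3.36 and 4.89. Properdin (Cfp), which stabilises the alternative convertase, was lower in FAPs on each day, at -7.64, -3.76, -4.37 and -4.42, with 2.63 CPM in FAPs and 524 in immune cells at day 0.

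Among soluble regulators, clusterin (Clu, 3.15) and vitronectin (Vtn, 3.10) were higher in FAPs at day 0. Of 5 membrane regulators, Cd55, which breaks up convertases, was the 1 higher at day 0 (3.02, 2.65–3.41) with none lower. Of 7 receptors and binding proteins tested at day 0, 5 were lower in FAPs and 1 higher. The C5a receptor C5ar1 (-6.51), the C3 fragment receptor subunits Itgam (-9.95, -13.00 to -8.08, from 2 UMIs in FAPs), Itgax (-9.83, -15.15 to -7.32, from 1 UMI) and Itgb2 (-7.31) and Cd93 (-2.56) were the lower ones and Lrp1 (1.78) the higher.

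Between days in FAPs, 11 of 25 other pathway genes were higher at day 2 than at day 0 and 8 lower, 4 and 3 of 22 at day 5 and 6 and 5 of 27 at day 7, beside the shares of all genes given above for the members. In cells thinned to 1000 UMIs the counts were 3 higher and 7 lower at day 2. They were 0 and 3 at day 5 and 1 and 3 at day 7. Thinning leaves fewer UMIs to reach the minimum for a call, so these counts cannot tell smaller ratios from genes with too few UMIs. At day 2 the lower genes included C1ra (-1.46, -1.55 to -1.37), C1s1 (-1.10, -1.17 to -1.03), Clu (-3.04), Vtn (-1.26) and Cd55 (-2.60), the same direction as C3. The near copies C1rb and C1s2 were higher, C1rb at 62.5 CPM at day 2 against 4.77 at day 0 (3.71, 3.37–4.07) and C1s2 at 59.5 against 2.75 (4.43, 3.99–4.91). At day 7 C1rb stood at 1.46 CPM and C1s2 at 1.32 CPM in FAPs, both below their day 0 levels. These copies are uncertain, since 68.9% of the 31-base runs in the last 400 bases of C1rb occur in C1ra and 34.9% of those of C1s2 in C1s1. Higher receptor genes at day 2, Itgam, Itgax, Itgb2, C5ar1 and Cd93, are also expressed by macrophages, whose markers in those FAPs had the median of 7.03% given above, and the part of that RNA was not tested. At day 7, Cd55 (-2.17, -2.28 to -2.07) and Clu (-1.97, -2.15 to -1.81) were lower than at day 0. In endothelial cells 4 of 17 were higher and 6 lower at day 7, against 7.08% and 9.97% of all genes, and 0 of 13 higher and 8 lower at day 5, against 11.4% and 15.7%. In thinned endothelial cells the counts were 1 higher and 2 lower at day 7 and 0 and 3 at day 5.

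The likeness of patterns was measured as Pearson's r of log2(level + 10) over the 29 combinations of label and day with at least 50 cells, among 5768 genes with a row on all days and a mean of at least 20 CPM. These points share libraries, depth and RNA of other cells, so r is a description. C1qa, C1qb and C1qc were each most like the other 2 chains, at 0.98 to 0.99, and next like Ms4a7, at 0.92 for C1qa. C3ar1 was most like Ms4a6d (0.97), Adgre1 (0.97), Fcgr1 (0.95). C3 was most like C1ra (0.95), Sema3c (0.94), Tnfaip6 (0.94), and Serping1 most like Rarres2 (0.97), Pcolce (0.97), Ogn (0.97). C4b and Cfb had weaker matches, Mmp3 (0.77), Sned1 (0.77), Serpina3n (0.76) for C4b and Svep1 (0.80), Pcsk6 (0.79), Thbs3 (0.79) for Cfb. Among members, r was 0.90 for C3 with Serping1, 0.72 for C3 with C4b and 0.77 for C3 with Cfb, while C1qa with C3ar1 gave 0.85 and C1qa with C3 -0.35.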

How the data were processed

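Cells of the tibialis anterior were profiled with 10x Chromium 3' v2 libraries. The deposited tables hold UMI counts per gene and cell that the authors made with Cell Ranger 2 and Seurat 2.3.4 in R 3.6.2 on mm10, per the submitters' processing notes. The authors' normalized tables hold natural log values of counts scaled per cell, as deposited, and were used in 1 alternative after being turned back to linear values. Cell labels are the authors' deposited annotation. Of their annotation files, 4 in all, 20 other columns were not used. Among these, the one on injury gives day 0 throughout, so samples were assigned to days by their labels alone.

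UMIs were summed over the cells of each label or class and day (Python 3.11.15, numpy 2.4.6, scipy 1.17.1), divided by the total of that sum and given as CPM with exact Poisson 95% intervals. Ratios were computed for all genes in both sums, with a call at 2-fold or more and at least 20 UMIs over both groups, and a count of 0 replaced by 3. Day comparisons needed 100 cells per class, and labels under 50 cells entered no ratio. Shares of cells used cells thinned to 1000 UMIs. With 1 table per day no p-value was computed, since cells are not replicates. No doublet caller was run, and cells above 3 times the median UMIs of their label were left out in an alternative. The ratio code was tested on simulated data with known fold changes. The 9 genes, the pathway and marker lists and the tests were chosen with earlier results of these data known. Named genes were the 9 members, the other pathway genes called in a comparison (1 of them is not reported here), and for each member the 3 genes with the most like pattern. The alternatives were the authors' normalized values, thinning, the UMI limit, TMM factors (edgeR 4.0.16 in R 4.3.3), totals without mitochondrial, ribosomal protein and globin genes, leaving out cells with 3 or more UMIs of markers of the other type, no UMI minimum, single FAP labels, macrophage or APC labels alone, and adding the barcodes without a label. Leaving out immune labels led by markers of another type was added after seeing the data. Upstream sequences came from RefSeq (GRCm38.p6) and gene positions from GENCODE. The sequences of C1qa, C4b, Cfb and Serping1 were not used here.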

Additional observations from a re-analysis of the deposited data

Results flagged for a closer look

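Several log2 ratios over day 0 pointed in opposite directions in different cells, and with 1 table per day none of these differences was tested. C1qa at day 2 stood at 3.74 in FAPs and -0.56 in immune-labelled cells. At day 5, C1qa stood at 2.02 in FAPs and -0.38 in immune-labelled cells, C1qb at 2.09 and -0.35, and C1qc at 1.79 and -0.48. The immune class of day 5 included 264 NK cells and 409 cells labelled Macrophages/APCs/T-cells, and the part of this mixture was not tested. In the macrophage-rich labels alone, each C1q chain stood higher at day 5 than at day 0, the same direction as in FAPs. The C1q level of FAPs at day 5 was below that of every macrophage marker in them, as a percent of the macrophage level. Serping1 at day 7 stood at 0.036 in FAPs, against -2.58 in immune-labelled cells and -2.19 in endothelial cells, whose own levels were within the range of FAP markers. C3 at day 7 stood at 0.89 in FAPs (activated) and -2.38 in the label FAPs.

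Barcodes with counts but no deposited label also held complement UMIs, above the 3 counts that serve as the limit of a count of 0. The 9 genes together summed to 342 CPM in 14 such barcodes at day 0, 314 CPM in 21 at day 2, 2882 CPM in 13 at day 5 and 15972 CPM in 9 at day 7, where the limits were 48.9, 3.61, 22.1 and 26.5 CPM. At day 7 C1q made up 15672 CPM of this, and at day 5 it made up 1588 CPM.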

How the results depend on the processing

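No paired analysis was possible because each day was 1 table, and for the same reason no replicate could be left out. Between FAPs and immune-labelled cells, 4 members higher and 4 lower were called on all 4 days under every alternative, apart from 3 higher at day 2 in cells thinned to 1000 UMIs, where Cfb had under 20 UMIs. In FAPs over day 0, thinning raised the members called lower at day 2 to 2, the added one being Cfb (-1.24), and the label FAPs (activated) alone gave 0 members lower at day 7, with C3 at 0.89 in place of -1.20, since that label holds the C3-rich cells. With the label FAPs alone at day 7, C4b was no longer past 2-fold higher. In endothelial cells at day 5 over day 0, thinning gave 0 higher and 1 lower, leaving out cells above 3 times the median gave 1 lower, and no minimum of UMIs gave 5 higher. Adding the barcodes without a label as a class of their own lowered shares of UMIs. In immune labels C1qb fell to 98.2% at day 2, C1qa, C1qb, C1qc and C3ar1 to 97.0, 94.3, 95.4 and 90.9% at day 5, and C1qa, C1qb and C1qc to 93.0, 93.0 and 92.9% at day 7. In FAPs at day 5, C3 fell to 90.7% and Serping1 to 95.1%. Of 518 member ratios recomputed, 148 moved by more than counting error and 1 reversed, named above. Counts of other pathway genes fell most with thinning, to 3 higher in FAPs at day 2, 0 at day 5 and 1 at day 7, and thinning also leaves fewer UMIs to reach the minimum of 20. Another scaling moved the median of all genes by over 0.1 on the log2 scale in some comparisons, TMM taking it to -0.08 from 0.25 for FAPs over immune-labelled cells at day 2 and to 0.00 from 0.27 at day 7. The day 5 table, with the fewest UMIs, limits the low genes most.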
